A study of Mus musculus with 24 samples.

Results

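The CpGs described here are the 4869 cytosines on chromosomes 1 to 19 that had a methylation value in every one of 19 mice and whose mean over these mice was at least 30% and under 70%. They were chosen by measured values, the unweighted mean over all 19 mice, out of 67080 autosomal cytosines with a value in every mouse (7.26%) and 762182 cytosines in the whole table. Of the others measured in every mouse, 53886 had a mean under 30% and 8325 a mean of 70% or more. Means next to the limits lay close together, at 29.9965% and 30.0048% on either side of the lower limit and at 69.9898% and 70.0006% on either side of the upper limit, and 177 intermediate CpGs lay within 1 point above the lower limit against 191 CpGs within 1 point below it.

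Reduced representation bisulfite sequencing (RRBS), which reads cytosine methylation in restriction fragments of the genome, was carried out on micro-dissected dentate gyrus, the entry region of the hippocampus, from single female C57BL/6JRj mice. The groups used were 5 Young STD mice of 1.5 months in standard housing (STD), 7 Aged STD mice of 14 months in standard housing and 7 Aged ENR mice of 14 months in an enriched environment (ENR), the aged mice having spent most of their lives in their housing. The 5 mice labelled Young ENR were not analysed here. The dentate gyrus holds granule neurons, interneurons, glia and vessel cells, and the methylation table gives no RNA levels with which to check the tissue against marker genes.

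An intermediate methylation percentage can arise from several arrangements of molecules. At the control regions of imprinted genes, the copy inherited from 1 parent is methylated and the other is not in every cell, so that a mixture of both copies reads near the middle of the scale. A CpG that is methylated in some cell types and unmethylated in others also reads as intermediate in a tissue of mixed cells, and a percentage from bulk tissue cannot tell these arrangements apart. Low methylation is otherwise typical of CpG-rich promoters and high methylation of the rest of the genome.

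Several libraries stood apart before any comparison. A value of exactly 0% or 100% was found at 1.01% to 15.6% of the intermediate CpGs in 14 libraries, but at 26.3%, 36.4% and 44.2% in Aged STD mice 2, 3 and 4 and at 31.7% and 33.9% in Aged ENR mice 3 and 4. The main counts, strand correlations and block differences are therefore also given without these 5 libraries, which are all from aged mice. The libraries fell into 2 number series, 27 and 37, each holding mice of all 3 groups. The 5 libraries rich in values of 0% and 100% are all of series 27. Without them, only Aged STD mouse 1 and Aged ENR mice 1 and 2 remain of the aged mice in that series. Leaving them out thus also changes the balance of series between young and aged mice.

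The sequences of 3 groups of neighbouring intermediate CpGs are shown as examples. All are from GRCm38 (mm10), plus strand, in lower case with the intermediate CpGs in capitals. The first lies at the imprinted non-coding gene Airn (chr17:12742216-12742326). The second is in an intron of Crim1 (chr17:78264325-78264497), with intermediate CpGs on both strands, and the third in an exon of Kin (chr2:10092035-10092227), with intermediate CpGs that stayed near the middle of the scale on average in every mouse.
Airn: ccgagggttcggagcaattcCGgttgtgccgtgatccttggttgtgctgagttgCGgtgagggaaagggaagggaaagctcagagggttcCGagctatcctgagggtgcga
Crim1: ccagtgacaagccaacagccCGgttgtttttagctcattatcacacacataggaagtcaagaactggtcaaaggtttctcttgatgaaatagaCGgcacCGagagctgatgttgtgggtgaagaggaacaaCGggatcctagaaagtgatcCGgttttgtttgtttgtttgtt
Kin: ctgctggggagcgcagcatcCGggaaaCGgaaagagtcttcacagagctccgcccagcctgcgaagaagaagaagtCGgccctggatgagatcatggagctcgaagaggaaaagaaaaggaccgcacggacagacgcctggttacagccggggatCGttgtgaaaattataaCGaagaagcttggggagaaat

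The intermediate CpGs lay mostly outside promoters. By the GENCODE M21 annotation 1864 (38.3%) were intergenic, 1857 (38.1%) intronic, 411 (8.44%) exonic and 737 (15.1%) within 1000 bases of a transcript start. Among all 67080 autosomal cytosines measured in every mouse the corresponding shares were 21.4%, 18.1%, 4.9% and 55.7%. The share near transcript starts was thus between that of CpGs with low methylation (66.6%) and that of CpGs with high methylation (8.53%). Their median distance to a transcript start was 8616 bases, against 437 bases for low and 13249 bases for high methylation. The surroundings were poor in CpGs, with a median of 10 CpGs within 250 bases on either side and a ratio of observed to expected CpGs of 0.345, against 24 CpGs and 0.63 for the low class and 9 CpGs and 0.36 for the high class. In CpG density the intermediate CpGs were close to the highly methylated ones. In location they were not, since 53.6% of the highly methylated CpGs were intergenic and 29.3% intronic.

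In repeat content they differed from the highly methylated CpGs. Soft-masked repeats held 11.7% of the intermediate CpGs, 35.7% of the highly methylated and 5.01% of the low ones. The 32 bases around the CpG occurred more than once in the genome for 181 intermediate CpGs (3.72%), against 20.8% of the highly methylated CpGs. The restriction site CCGG held 46.9% of the intermediate CpGs, 51.1% of the high and 33.4% of the low class. They made up between 6.31% (chromosome 5) and 9.5% (chromosome 12) of the CpGs measured in every mouse on a chromosome.

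Averaged over the intermediate CpGs, the Young STD mice had 50.1%, 50.4%, 49.5%, 58.0% and 58.3% methylation. The Aged STD mice ranged from 33.7% to 56.1% with a median of 46.4%, and the Aged ENR mice from 41.1% to 56.9% with a median of 47.7%. The group means were 53.3% ± 4.46 (SD, n = 5) for Young STD, 43.6% ± 8.01 (SD, n = 7) for Aged STD and 47.9% ± 4.74 (SD, n = 7) for Aged ENR. The groups overlapped, and no test was made of this mean because the CpGs were chosen by their values in the same mice. Within series 27 the means were 50.03%, 41.8% and 45.9%, and within series 37 they were 58.2%, 45.9% and 50.4%, in the same order of groups. The lowest means were those of Aged STD mice 3 (33.7%), 6 (35.3%) and 4 (38.8%).

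These 3 mice also had the lowest library composition index, which is the mean level in the Young STD mice of the CpGs that a library happened to measure. It was 19.6, 19.5 and 20.8 in Aged STD mice 3, 6 and 4, and between 23.4 and 38.0 in the other mice. Its part in the means was tested only as a term in the fits below.

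**Figure D1:**
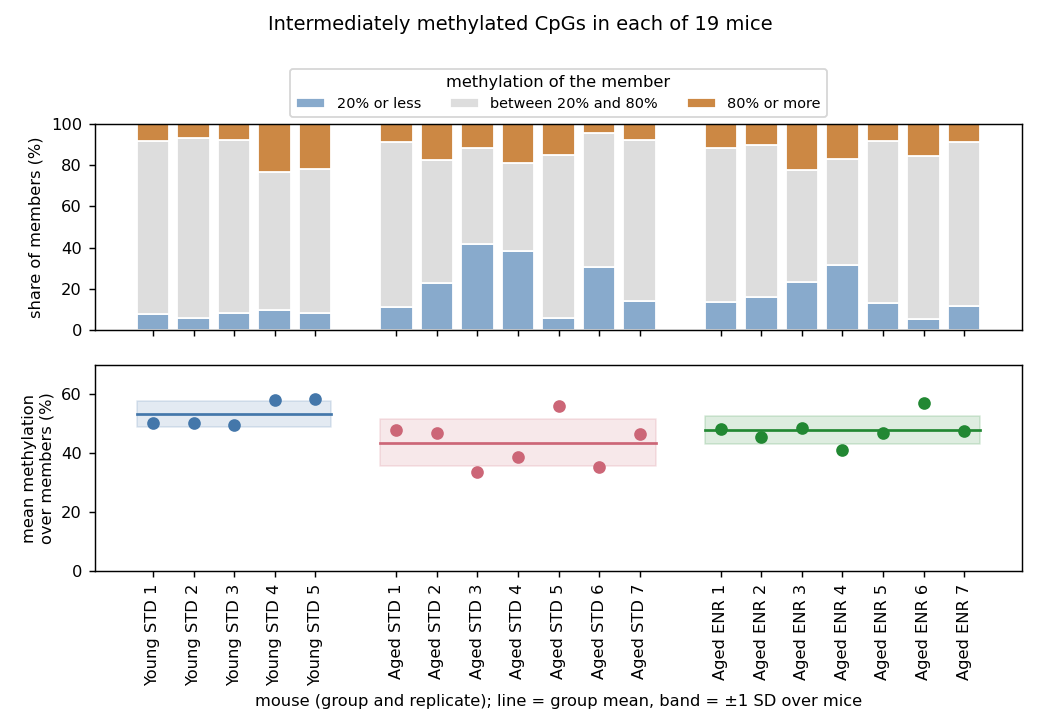
Upper panel: share of the 4869 intermediate CpGs with 20% methylation or less, between 20% and 80%, and 80% or more in each mouse. Lower panel: mean methylation over these CpGs (%), with group mean and SD; the Aged STD mice span 33.7% to 56.1% and the group ranges overlap.

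An intermediate mean did not mean an intermediate value in each mouse. In Young STD mice 1, 2 and 3 between 83.7% and 87.1% of the CpGs had values between 20% and 80%. In Young STD mice 4 and 5, which are of library series 37, the share was 66.9% and 69.7%. It was 46.4% in Aged STD mouse 3 and 42.6% in Aged STD mouse 4, where 41.8% and 38.7% of the CpGs had a value of 20% or less. The Aged ENR mice ranged from 51.4% to 79.4%.

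The standard deviation (SD) of a CpG over the 19 mice had a median of 24.8 points and ran from 5.37 to 43.5 points. For comparison, the median was 5.02 points for the low and 10.9 points for the high class, classes in which values near the end of the scale leave less room for spread. Reading a CpG of 50% from 10 reads, the least coverage that was kept, gives a counting SD of 15.8 points, and 93.0% of the intermediate CpGs had a larger SD. The coverage behind each percentage is not in the table, so this is only a yardstick. The median SD changed little along the range, from 23.8 points for means of 30% to 40% to 25.7 points for means of 50% to 60%.

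**Figure D2:**
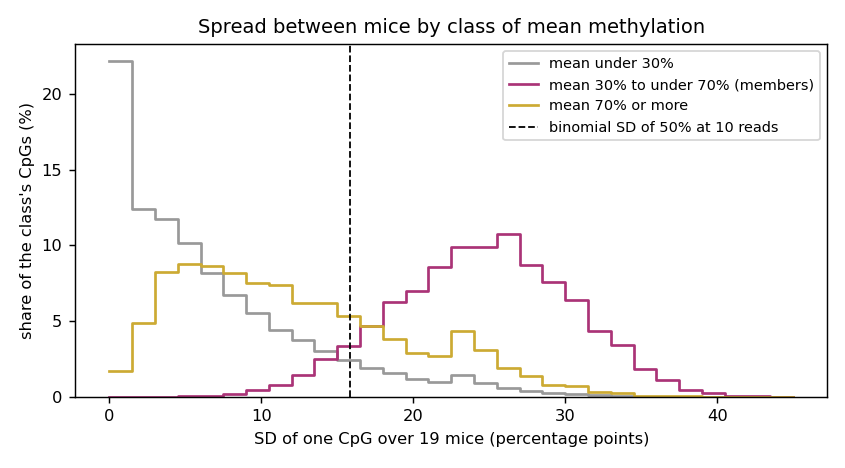
Share of CpGs (%) against the SD of a CpG over 19 mice (points) for 3 classes of mean methylation. The intermediate CpGs centre on a median of 24.8 points, and the dashed line marks the counting SD of 15.8 points at 10 reads.

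Within groups the median SD was 17.4 points over the 5 Young STD mice, 25.4 points over the 7 Aged STD mice and 23.2 points over the 7 Aged ENR mice. The SD was larger in Aged STD than in Young STD at 3684 of the 4869 CpGs and larger in Aged ENR than in Young STD at 3450. Without the 5 libraries rich in values of 0% and 100%, the medians were 18.7 points for the remaining 4 Aged STD and 18.7 points for the remaining 5 Aged ENR mice, beside 17.4 points in Young STD. Over all remaining mice the median SD was then 20.5 points.

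At 2668 CpGs (54.8%) at least 1 mouse had 10% methylation or less while another had 90% or more; these are called split CpGs. Counting the mice of 1 group alone, 198 CpGs were split among Young STD, 1289 among Aged STD and 918 among Aged ENR mice, where the aged groups have more mice and hold all 5 libraries rich in values of 0% and 100%. Without these libraries the counts were 198 among 5 Young STD, 164 among 4 Aged STD and 193 among 5 Aged ENR mice, and 1020 CpGs (20.9%) were split over the 14 remaining mice. These libraries were chosen for their values of 0% and 100% at the same CpGs and fewer mice remain, so that lower counts without them are in part fixed by that choice. By contrast 85 CpGs (1.75%) stayed between 20% and 80% in all 19 mice and are called evenly intermediate, a number that was 412 (8.46%) over the 14 mice. Split and evenly intermediate CpGs had medians of 9 and 11 CpGs within 250 bases. Repeats held 24.7% of the evenly intermediate and 9.52% of the split CpGs.

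The smallest and the largest SD are shown by the CpGs at both ends of the ranking, with 20 bases on either side and intermediate CpGs in capitals. The first pair is the intergenic CpG on the plus strand of chromosome 1 at position 177659828 (window chr1:177659808-177659849) and an intronic CpG of the Ugt1a cluster, which encodes glucuronidating enzymes (window chr1:88171470-88171511, in a repeat). The second pair is an intronic CpG of Gabbr2, a subunit of the GABA-B receptor (window chr4:46975576-46975617), and a CpG at a start of Gm16157 within Fam169b (window chr7:68275087-68275128).
Smallest SD, chromosome 1: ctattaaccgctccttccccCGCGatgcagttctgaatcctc
Second smallest SD, Ugt1a cluster: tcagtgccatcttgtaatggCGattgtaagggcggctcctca
Largest SD, Gabbr2: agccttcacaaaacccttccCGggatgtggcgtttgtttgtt
Second largest SD, Gm16157: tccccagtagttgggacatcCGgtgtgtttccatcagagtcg

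The CpG with the smallest SD (5.37 points) had 79.4%, 64.0%, 66.5%, 72.6% and 68.4% in Young STD mice, 55.6% to 72.9% in Aged STD and 62.2% to 69.0% in Aged ENR mice. The neighbouring CpG 2 bases away, at position 177659830, was also among the 5 with the smallest SD (7.97 points), but its mean was 37.6% against 66.7%. Both lie in a repeat between genes, and the nearest transcript start is that of 2310043L19Rik. The Ugt1a CpG had 45.2% to 69.1% in all mice, and its 32-base surroundings occur 2 times in the genome. A CpG on chromosome 10, position 34746132, with 30.9% to 54.2% had surroundings that occur 519 times. The remaining CpG of these 5, on chromosome 18 at position 54758617, had 30.7% to 57.2%.

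The Gabbr2 CpG had the largest SD, 43.5 points. It had 61.1%, 95.2%, 73.6%, 100% and 100% in Young STD mice, whereas among the 7 Aged STD mice 2 had 0% and 3 had 100%, and among the 7 Aged ENR mice 4 had 0% and 1 had 100%. The Gm16157 CpG (SD 41.9 points) had values of 20% to 100% in Young STD and 0% to 100% in both aged groups. The other CpGs of the 5 lay in 8030442B05Rik and between genes, with Chst8 and Nptx2 as nearest starts, with SDs of 41.8, 41.1 and 40.9 points.

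When intermediate CpGs at most 300 bases apart were joined, they formed 3451 blocks. A single CpG made up 2438 of them, which is 50.1% of the 4869 CpGs, and 26 blocks held 5 or more, with 176 CpGs in all. The 15 blocks with the most CpGs are named here. Of these, 4 lay in the annotated non-coding gene Gm49692 on chromosome 12 (22, 8, 8 and 6 CpGs), and the second largest, with 14 CpGs, lay at Zrsr1. The others were at Tmem267 (11 CpGs), near Gm42642 (7), near Gm17619 (6), in Npas3, Mbd2, Crim1 and AC102496.1 (6 each) and in Kin, Nphp4 and Extl1 (5 each). Every CpG measured in all mice within a block was intermediate, apart from the blocks near Gm42642 and Gm17619, in Kin, in Nphp4 and the smallest one in Gm49692.

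Zrsr1, which resembles a splicing factor and is expressed from the paternal copy, lies within Commd1, a gene of copper metabolism, and its start is methylated on the maternal copy. All 14 CpGs measured in every mouse at this start, between positions 22972845 and 22972993 of chromosome 11 in the annotated untranslated part of Zrsr1 before its coding sequence, were intermediate, with a mean of 41.5%. Their median SD of 36.9 points exceeded the 24.8 points of intermediate CpGs at large. The spread followed the strand. Averaged over the 7 plus-strand CpGs, the Young STD mice had 76.8%, 35.1%, 79.0%, 100% and 98.1%, and over the 7 minus-strand CpGs the same mice had 65.5%, 48.9%, 18.5%, 31.6% and 32.7%.

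The direction of the difference varied among mice. Aged STD mouse 4 had 0% on the plus and 100% on the minus strand, whereas Aged ENR mouse 4 had 99.2% on the plus and 0% on the minus strand. Aged ENR mouse 7 had 24.5% on the plus and 100% on the minus strand, and Aged STD mice 2 and 3 were under 10% on both. In 10 of 19 mice the strand means were more than 50 points apart, in 6 of them with the plus strand higher and in 4 with the minus strand higher. In 5 of 19 mice both strand means were from 20% to 80%. Without the 5 libraries the strand means were more than 50 points apart in 7 of 14 mice.

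On 1 strand within a mouse, by contrast, the CpGs at Zrsr1 had nearly the same value. The range among the 7 CpGs had a median of 6.08 points on the plus and 4.55 points on the minus strand, while the difference between the strand means had a median of 58.4 points. Over the mice the mean was 43.9% ± 36.2 (SD, n = 19) for the plus and 39.1% ± 36.1 (SD, n = 19) for the minus strand. In RRBS, the strands of a fragment are read separately after conversion. The 32 bases around each of these CpGs occur once in the genome.

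**Figure D3:**
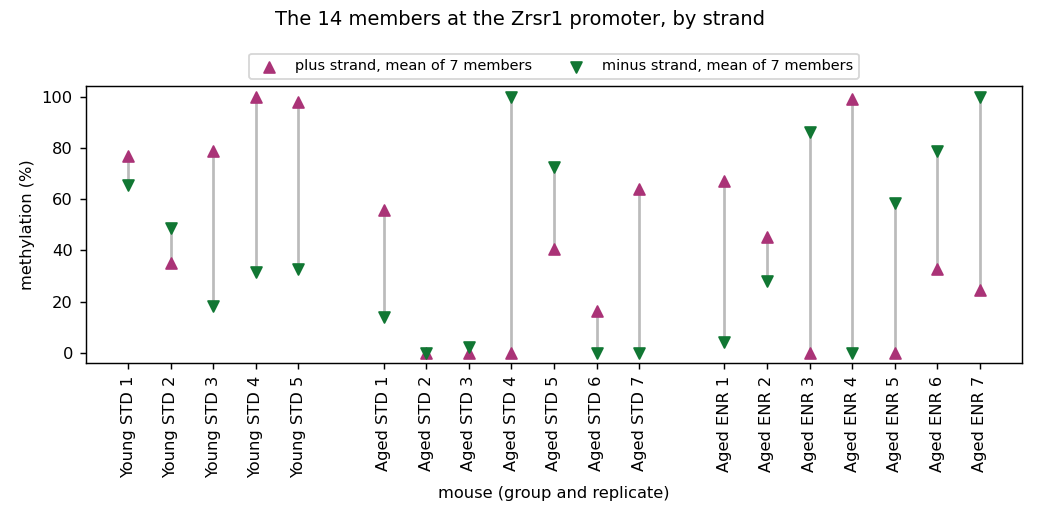
Mean methylation (%) of 7 plus-strand (upward triangles) and 7 minus-strand (downward triangles) CpGs at the Zrsr1 start in each mouse, joined by a line. In 10 of 19 mice the strands are more than 50 points apart, in either direction.

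The largest block behaved otherwise. At the 22 CpGs of Gm49692 between positions 20233309 and 20233718 of chromosome 12, the means of the 12 plus-strand and 10 minus-strand CpGs differed within a mouse by a median of 8.41 points and never by more than 22.5 points. The mean over all 22 CpGs was 74.8%, 55.8%, 69.6%, 81.3% and 75.2% in Young STD mice, 19.6% to 81.6% with a median of 50.1% in Aged STD mice and 45.8% to 76.3% with a median of 68.8% in Aged ENR mice. The lowest Aged STD values were those of mouse 6 (19.6%), mouse 3 (26.9%) and mouse 4 (28.0%), the libraries with the lowest composition index. The 32-base surroundings of a CpG occurred up to 3 times in the genome in this block and up to 5 times in the other blocks of Gm49692, and whether reads of related copies were mixed was not tested.

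Of the 26 blocks, 11 held at least 2 CpGs on each strand, and in these the median difference between strand means within a mouse ran from 8.09 points near Gm42642 to 58.4 points at Zrsr1. The next highest after Zrsr1 was 20.98 points at Crim1, a membrane protein that binds bone morphogenetic proteins. The 11 CpGs at Tmem267 were all on the minus strand and moved together: they averaged 52.9%, 74.0%, 66.1%, 42.3% and 41.2% in Young STD mice, but 2.05%, 5.91% and 7.81% in Aged STD mice 3, 4 and 6 beside 74.9% to 84.1% in the other 4, and 13% to 77.2% in Aged ENR mice. The 6 CpGs in AC102496.1 on chromosome 18, all on the minus strand, had averages from 0% to 100% over the mice. Narrower blocks also occurred, and the 5 CpGs in an exon of Kin, which encodes a protein of DNA replication and repair, averaged 39.9% to 62.0% in all 19 mice.

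Across all intermediate CpGs, near neighbours on 1 strand were also more alike than the strands of a CpG. After the mean of each CpG and of each mouse had been subtracted, same-strand CpGs 2 to 10 bases apart deviated together, with r = 0.54 over 334 pairs in 19 mice, falling to 0.43 at 31 to 60 bases and 0.35 at 61 to 150 bases. For the 46 CpG dinucleotides with both strands intermediate, r was 0.09. Without the 26 blocks of 5 or more CpGs these values were 0.47 over 279 pairs and 0.08 over 29 pairs, and with all blocks but without the 5 libraries they were 0.54 and 0.10. Pairs share mice, libraries and often reads, so these correlations are descriptions with no p.

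In points, same-strand neighbours 2 to 10 bases apart differed within a mouse by a median of 12.1 points and by more than 50 points in 5.91% of cases. The strands of 1 CpG differed by a median of 18.4 points and by more than 50 points in 12.6% of cases. Opposite-strand pairs at 61 to 150 bases had r = -0.12 over 161 pairs, and r = 0.05 over the 64 pairs outside the blocks. At greater distances r was 0.16 on opposite strands and 0.25 on the same strand over 150 and up to 300 bases apart and 0.19 and 0.26 over 300 and up to 1000 bases apart, with median differences of 16.7 and 16.3 points and of 17.1 and 18.4 points. Outside the blocks these correlations were 0.02 and 0.08 over 150 and up to 300 bases apart and -0.02 and 0.07 over 300 and up to 1000 bases apart. In the 5 libraries rich in extreme values, 15.7% to 23.4% of the 927 same-strand pairs at most 30 bases apart were both at 0% or both at 100%, against 0.108% to 8.63% in the other 14, while 1.94% to 5.93% of pairs in these 5 had 0% at 1 CpG and 100% at the other.

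**Figure D4:**
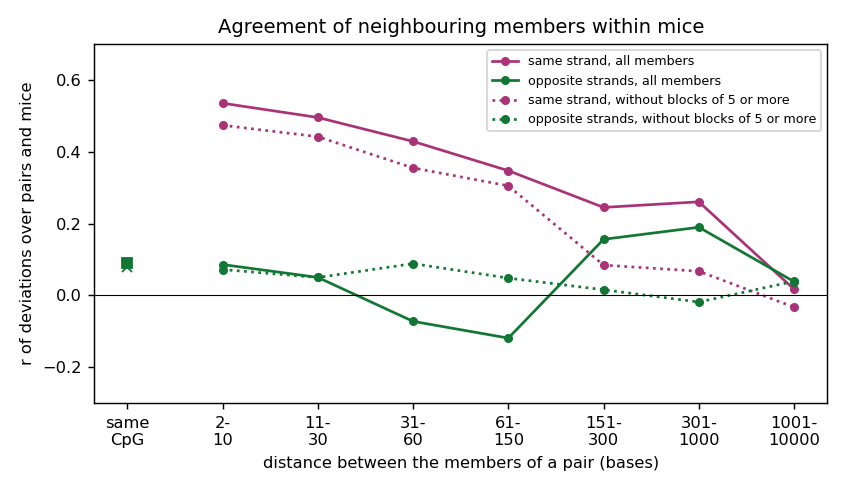
Correlation of deviations, after CpG and mouse means were subtracted, against the distance between the CpGs of a pair (bases), for pairs on the same and on opposite strands, with all CpGs (solid) and without the 26 blocks (dotted). The single square and cross at the left are the strands of 1 CpG (0.09 and 0.08), while same-strand neighbours start at 0.54.

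Near imprinted genes whose control region is methylated on the maternal copy, a large share of the measured CpGs was intermediate. Within 5000 bases of a transcript start of 26 such genes, 64 CpGs were measured in every mouse, and 29 of them (45.3%) were intermediate, 35 low and 0 high, beside 7.26% intermediate over all CpGs measured in every mouse. They belonged to 7 of the 10 genes with such CpGs, which were Zrsr1 (14 of 17), Gnas (5 of 15), Nespas (4 of 11), Peg13 (3 of 6), Airn (3 of 3), Mcts2 (2 of 5) and Nnat (1 of 11). Near the 6 genes with a paternally methylated control region, 0 of 17 CpGs were intermediate, 14 being low and 3 high. Of 88 CpGs near 33 other imprinted genes, 22 (25%) were intermediate, but 17 of these also lie near a gene of the maternal list, as the Zrsr1 CpGs do near Commd1, those of Mcts2 near H13 and that of Nnat near Blcap. Of the 55 CpGs near other imprinted genes alone, 5 (9.09%) were intermediate.

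Airn is the non-coding RNA that silences Igf2r on the paternal chromosome. Its 3 CpGs, all on the plus strand, averaged 41.6%, 53.0%, 45.5%, 18.98% and 84.3% in Young STD mice, 0% to 100% in Aged STD mice and 0% to 70.4% in Aged ENR mice. Gnas encodes the alpha subunit of a stimulatory G protein, and its 5 CpGs averaged 45.4% to 62.8% in Young STD, 5.45% to 69.8% in Aged STD and 19.5% to 61.2% in Aged ENR mice. The 4 CpGs near the antisense RNA Nespas overlap those of Gnas in part. They averaged 46.9% to 65.2% in Young STD, 0% to 77.7% in Aged STD and 31.5% to 86.4% in Aged ENR mice. The 3 CpGs of the non-coding gene Peg13 averaged between 15.4% and 58.1% in all mice. The 3 CpGs near Blcap, the host gene of Nnat, averaged between 4.17% and 84.1% in all mice. At all of these genes the group ranges overlapped.

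Within 5000 bases of a start of genes that mark cell types, 24 of 386 CpGs (6.22%) near the 6 lists of markers were intermediate, and within 20000 bases 46 of 534 (8.61%), beside 7.26% over all CpGs measured in every mouse. By list, within 5000 bases, 5 of 124 CpGs near 20 neuron markers (4.03%), 2 of 88 near 12 interneuron markers, 2 of 42 near 14 oligodendrocyte markers, 5 of 65 near 11 astrocyte markers (7.69%), 2 of 30 near 9 endothelial markers and 8 of 37 near 14 microglia markers (21.6%) were intermediate. The microglial CpGs were 6 at Sall1, a transcription factor of microglia, and 2 at Irf8. These were 2 of the 5 microglia genes with CpGs measured in every mouse. At Sall1, 5 of the 6 CpGs lay within 59 bases on the plus strand. The 6 CpGs of Sall1 averaged 36.9% to 84.5% in Young STD, 7.36% to 51.3% in Aged STD and 18.1% to 88.2% in Aged ENR mice. Rbfox3, whose product NeuN labels neurons, had 4 CpGs that averaged between 21.4% and 71.8% in all mice. Aldh1l1, a folate enzyme of astrocytes, had 3 that averaged between 0% and 81.6%.

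The clustered protocadherins, cell-surface proteins of which each neuron uses a subset by promoter choice, had 20 intermediate CpGs among 87 (23.0%), beside 49 low and 18 high ones. Those named by the rule were at Pcdhga4, Pcdhga5, Pcdhga9, Pcdhgb2 and Pcdhgb6, whose promoters neighbour each other so that CpGs are shared. The 5 at Pcdhga5 averaged 28.4% to 80% in Young STD, 22.9% to 62.2% in Aged STD and 20% to 50.01% in Aged ENR mice. Near 30 genes of the germline, 0 of 9 CpGs were intermediate. Of the candidate genes of the study, Cux2 had 1 intermediate CpG and Tiam1 and Tshz2 had none, out of 32 CpGs within 5000 bases of a start of the 3 genes, which the study chose on these mice. Within 20000 bases, 6 of 53 CpGs at 2 of the 3 genes were intermediate.

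Methylation in aged and young mice of standard housing was compared at each CpG with limma, in a fit over all 527601 CpGs with enough values. In this comparison 0 of 527601 CpGs (0%), and so 0 of the 4869 intermediate CpGs, passed an adjusted p under 0.05 with a difference over 25 points. At an unadjusted p under 0.05, 326 intermediate CpGs (6.7%) were lower and 25 (0.513%) higher in Aged STD mice, while over all CpGs tested the shares were 3.33% and 1.09%. Differences over 25 points were found at 840 intermediate CpGs (17.3%) in the lower and 87 (1.79%) in the higher direction, against 7.19% and 2.17% of all CpGs tested, and without the 5 libraries at 587 (12.1%) and 110 (2.26%), against 5.6% and 2.15%. The share in the higher direction was above that of all CpGs tested in this fit and in 3 others, with 139 (2.85% against 2.61%) with the replicate block, 120 (2.46% against 2.3%) without Young STD mouse 5 and 116 (2.38% against 2.33%) without Aged STD mouse 1. Of the CpGs measured in every mouse, 80.3% were in the low and 12.4% in the high class. Differences over 25 points were found at 1.31% and 1.67% of these classes, where the scale leaves less room. Part of the distance from the shares of all CpGs tested is thus set by how the intermediate CpGs were chosen. This holds for the comparisons below as well. The smallest adjusted p among the intermediate CpGs was 0.76. Power was low in simulated data for this comparison with an SD of 25 points at every CpG. There the fit recovered 15 of 200 CpGs changed by 40 points. In the data the median SD was 17.4 points in Young STD and 25.4 points in Aged STD mice and varied between CpGs. Power at that spread was not simulated.

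The median difference of Aged STD from Young STD mice was -9.75 points over the intermediate CpGs, of which 72.6% were lower. The median was 0 points in the low and -0.06 points in the high class, where 43.3% and 50.5% of CpGs were lower. The classes were cut by means over the same mice. Values near the ends of the scale also leave less room to differ, so that this contrast is in part fixed by that choice. Over the intermediate CpGs the median was -8.18 points within library series 27 and -12.5 points within series 37. With the library composition index as a term the median estimate was -4.33 points, and 92 CpGs (1.89%) were lower and 31 (0.637%) higher at an unadjusted p under 0.05, against 2.13% and 2.59% of all CpGs tested. In that fit the intermediate CpGs thus had no excess of lower values. On a logit scale the excess was not seen either, with 169 (3.47%) lower against 3.83%. Without the 5 libraries rich in values of 0% and 100% the median was -6.88 points, with 172 (3.53%) lower and 39 (0.801%) higher, against 2.22% and 1.32%. Single libraries also moved the count of 326 lower CpGs, which was 215 (4.42%) without Young STD mouse 4, 194 (3.98%) without Young STD mouse 5 and 214 (4.4%) without Aged STD mouse 6, against 3.4%, 3.35% and 2.66% of all CpGs tested. It was 489 (10%) against 3.93% without Aged STD mouse 5, and the count of 25 higher CpGs was 16 (0.329%) against 1.07% without Young STD mouse 3.

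Group ranges did not overlap at 53 intermediate CpGs, of which 48 (0.986%) were lower and 5 (0.103%) higher in Aged STD mice, against 0.316% and 0.0581% of all autosomal CpGs measured in every mouse. With fewer mice ranges overlap less, and without the 5 libraries 136 (2.79%) were lower and 33 (0.678%) higher, against 0.763% and 0.429%. An intronic CpG of Grik4, a kainate receptor subunit, had the smallest p for a lower value among the 4869. At this CpG, on the plus strand of chromosome 9 at position 42569116, Young STD mice had 55.9%, 27.3%, 59.3%, 97.2% and 73.7%. Aged STD mice had 0% to 18.5% with a median of 0%, so that the groups did not overlap, and Aged ENR mice had 20.9% to 100% with a median of 52.8%. The difference was -57.6 ± 12.9 points (SE), with an adjusted p of 0.76 from limma.

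The CpG with the second smallest p lay in an intron of Usp46, a deubiquitinating enzyme, and in an exon of the overlapping gene Gm43417, on the plus strand of chromosome 5 at position 74048953. It had 79.7%, 62.1%, 72.7%, 56.0% and 68.0% in Young STD mice and 0% to 31.7% with a median of 9.23% in Aged STD mice, again without overlap (-55.1 ± 12.4 points, SE). It was the only intermediate CpG called in this comparison when the prior variance had no trend, with an adjusted p of 0.0325 from limma. In that fit 1 of 4869 intermediate CpGs (0.0205%) was called, against 0.0227% of all CpGs tested. The next 3 CpGs lay near Gm11625, Lax1 and Prkcz, an atypical protein kinase C, and had differences of -58.2, -67.8 and -58.8 points. The windows of the first and second CpG, chr9:42569096-42569137 and chr5:74048933-74048974, read as follows, with the intermediate CpG in capitals.
Grik4: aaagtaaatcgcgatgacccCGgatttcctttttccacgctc
Usp46 and Gm43417: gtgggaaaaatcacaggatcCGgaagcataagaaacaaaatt

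Among the CpGs with higher values in Aged STD mice, the smallest p belonged to a repeat CpG on chromosome 3 at position 21160015, whose 32-base surroundings occur 626 times in the genome. It had 0% to 14.8% in Young STD and 25% to 100% in Aged STD mice. An exonic CpG of Aff3, a regulator of transcription, had 0%, 39.6%, 28.3%, 12.5% and 20% in Young STD and 40.9% to 100% in Aged STD mice. The other 3 lay in Ptprs, a receptor tyrosine phosphatase, in D930007P13Rik and in Arhgap27, and had differences of 34.7, 41.9 and 35.8 points. The adjusted p of all 10 CpGs was 0.76.

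Over the 15 named blocks, the difference of Aged STD from Young STD mice ran from -35.6 points in AC102496.1 to 1.35 points in Extl1. In the largest block, of 22 CpGs in Gm49692, it was -25.0 points, and -18.5 points without the 5 libraries. The 14 CpGs at Zrsr1 were lower in Aged STD mice by 32.5 points on average. They averaged 58.6% ± 12.5 (SD, n = 5) in Young STD and 26.1% ± 23.2 (SD, n = 7) in Aged STD mice, with 42.0% to 71.2% and 0% to 56.5%, so that the groups overlapped. Without the 5 libraries the difference was -25.7 points. The 7 plus-strand CpGs averaged 77.8% ± 26.1 (SD, n = 5) in Young STD and 25.2% ± 27.8 (SD, n = 7) in Aged STD mice, a difference of -52.6 points, and -33.7 points without the 5 libraries. The 7 minus-strand CpGs averaged 39.4% ± 18.1 (SD, n = 5) and 27.01% ± 41.6 (SD, n = 7), a difference of -12.4 points, and -17.8 points without the 5 libraries. Whether the difference by age differs between strands was not tested. The 6 CpGs in AC102496.1 were lower by 35.6 points, and by 18.3 points without the 5 libraries, and the 6 at Sall1 by 24.3 and 26.0 points. At Tmem267 the difference was -6.76 points and turned to 6.68 points without the 5 libraries. Group ranges overlapped at each of these.

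**Figure D5:**
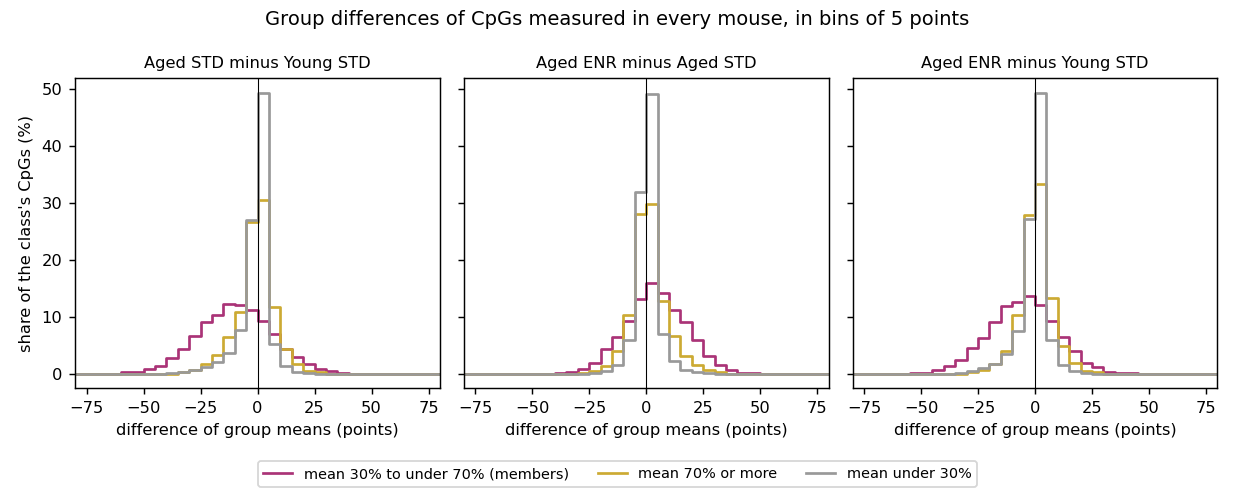
Distribution of the difference of group means (points, bins of 5) for the 3 comparisons and the 3 classes of mean methylation among CpGs measured in every mouse. The intermediate CpGs centre on -9.75, 4.01 and -5.04 points and spread more widely than both other classes. In those classes, values near the ends of the scale leave less room for differences.

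Housing was compared between Aged ENR and Aged STD mice in a fit over 530262 CpGs, which shares the Aged STD mice with the comparison by age. Again 0% of the CpGs tested, and 0 of the 4869 intermediate ones, passed the adjusted test. With a prior variance without trend 0 intermediate CpGs passed as well, against 0.0049% of all CpGs tested. At an unadjusted p under 0.05, 93 intermediate CpGs (1.91%) were higher and 25 (0.513%) lower in Aged ENR mice, against 1.45% and 0.798% of all CpGs tested. Differences over 25 points were found at 299 (6.14%) in the higher and 76 (1.56%) in the lower direction, against 4.53% and 2.62%. These counts were 236 (4.85%) and 112 (2.3%) without the 5 libraries, against 3.54% and 2.29%, so that the share in the lower direction was no longer under that of all CpGs. The higher count was 519 (10.7%) against 5.44% without Aged STD mouse 5, and the lower one was 114 (2.34%) against 2.95% without Aged STD mouse 3 and 117 (2.4%) against 3.12% without Aged ENR mouse 6. The median difference was 4.01 points, with 63.0% of CpGs higher, beside 0 points in the low and 0.49 points in the high class, which have less room to differ. It was 3.64 points in series 27 and 4.87 points in series 37, 2.36 points without the 5 libraries and 0.67 points with the composition index as a term. Single mice moved it too, to 2.53 points without Aged ENR mouse 6, 2.60 points without Aged STD mouse 3, 2.67 points without Aged STD mouse 6 and 6.14 points without Aged STD mouse 5. The count of 93 higher CpGs was 40 (0.822%) without the 5 libraries, 56 (1.15%) with the composition index as a term, 49 (1.01%) on a logit scale and 59 (1.21%) without Aged STD mouse 6. The shares of all CpGs tested were 1.39%, 1.35%, 1.85% and 1.22%, so that in each of these 4 fits the intermediate CpGs had no excess of higher values. Without Aged STD mouse 5 the count was 181 (3.72%) against 1.66%.

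Group ranges did not overlap at 4 intermediate CpGs with higher values (0.0822%) and 0 with lower values in Aged ENR mice, against 0.0119% and 0.00447% of the CpGs measured in every mouse. Without the 5 libraries 36 (0.739%) were higher and 16 (0.329%) lower, against 0.285% and 0.252%. The smallest p for a higher value belonged to an intergenic CpG with Nr1h2-ps as nearest start, on the minus strand of chromosome 9 at position 74384484. Aged STD mice had 0% to 30.4% with a median of 17.1% and Aged ENR mice 43.5% to 100% with a median of 70%, without overlap. Young STD mice had 28.4%, 30.1%, 33.3%, 0% and 0%. The difference was 60.7 ± 14.0 points (SE), with an adjusted p of 0.77 from limma. The next CpG lay in an intron of Wnt4, a secreted signalling ligand, with 0% to 69.6% in Aged STD and 53.1% to 100% in Aged ENR mice.

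The Grik4 CpG was the third in this direction, followed by a promoter CpG of AC113961.1 and an intergenic CpG near Gm42593. Among the CpGs with lower values in Aged ENR mice, those with the smallest p lay between genes with Gm45252 as nearest start, in Ajap1, near Gm22773, near Ccnc, a cyclin, and in Lrrc38. Their differences ran from -42.6 to -27.1 points. The Ajap1 CpG had 41.4% to 83.3% in Aged STD and 13.8% to 49.3% in Aged ENR mice, so that the groups overlapped. Over the 15 named blocks the difference by housing ran from -4.93 points in Extl1 to 29.6 points in AC102496.1, where it was 3.08 points without the 5 libraries. At Tmem267 it was 5.31 points and turned to -4.62 points without them. The 14 CpGs at Zrsr1 were higher in Aged ENR mice by 18.5 points, and by 11.05 points without the 5 libraries. On the plus strand the difference was 13.2 points and turned to -10.2 points without the 5 libraries, and on the minus strand it was 23.9 and 32.3 points.

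Aged ENR and Young STD mice were compared in a fit over 522279 CpGs, which shares mice with both comparisons above. Here too 0% of the CpGs tested and 0 intermediate CpGs passed the adjusted test. At an unadjusted p under 0.05, 188 intermediate CpGs (3.86%) were lower and 43 (0.883%) higher in Aged ENR mice, against 2.56% and 1.4% of all CpGs tested. Differences over 25 points were found at 9.84% in the lower and 2.14% in the higher direction, against 5.21% and 2.39%, and without the 5 libraries at 408 (8.38%) and 115 CpGs (2.36%), against 4.68% and 2.49%. With the replicate block the share in the higher direction was above that of all CpGs tested (2.65% against 2.47%), as it was in 5 of 12 fits that left out 1 mouse. The median difference was -5.04 points, with 63.8% of CpGs lower, beside 0 and 0.32 points in the low and the high class, which have less room to differ. Within series 27 and 37 it was -3.91 and -7.42 points, with the composition index as a term -3.04 points and without the 5 libraries -4.01 points. The count of 188 lower CpGs was 105 (2.16%) with the composition index as a term, 75 (1.54%) on a logit scale, 116 (2.38%) without Young STD mouse 4 and 117 (2.4%) without Young STD mouse 5. The shares of all CpGs tested were 2.36%, 3%, 2.69% and 2.63%, so that the excess of lower values was absent from these 4 fits. Without the 5 libraries 163 (3.35%) were lower against 2.03%, and the count of 43 higher CpGs was 28 (0.575%) against 1.35% without Young STD mouse 1.

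Ranges did not overlap at 31 CpGs with lower (0.637%) and 6 with higher values (0.123%), against 0.23% and 0.0581% of CpGs measured in every mouse. The counts without the 5 libraries were 62 (1.27%) and 16 (0.329%), against 0.425% and 0.167%. The smallest p belonged to an intergenic CpG nearest to Btg1, a growth-restraining gene, on the minus strand of chromosome 10 at position 96615609. Young STD mice had 100%, 91.5%, 96.0%, 100% and 100% and Aged ENR mice 29.5% to 84.7% with a median of 50.4%, a difference of -47.4 ± 9.74 points (SE) with an adjusted p of 0.78 from limma. The same CpG had 0% to 100% in Aged STD mice. A promoter CpG of Neb, the muscle protein nebulin, had 52.4% to 100% in Young STD and 0% to 31.9% in Aged ENR mice. The remaining 3 lay in Arhgap44 and near Pdha2 and Gm45651, with differences of -38.5, -55.9 and -41.6 points.

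Higher values in Aged ENR than in Young STD mice had the smallest p at the CpG near Nr1h2-ps, followed by CpGs near CT010467.2, A830029E22Rik and 4930412L05Rik and an intronic CpG of Itga6, an integrin subunit that binds laminin. The Itga6 CpG had 4.55% to 26.97% in Young STD mice, 41.2% to 100% in Aged ENR mice and 36.2% to 100% in Aged STD mice, so that the young mice did not overlap with either aged group. A CpG in an untranslated part of an exon of Nipal3 on chromosome 4, position 135491215, was the only intermediate CpG called here when the prior variance had no trend (adjusted p of 0.049 from limma), which is 0.0205% of them against 0.0176% of all CpGs tested. It had 58.9% to 73.5% in Young STD, 10.7% to 40% in Aged ENR and 0% to 37.5% in Aged STD mice, again with no overlap between the young and either aged group. The Usp46 CpG had 0% to 65.7% in Aged ENR mice.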

How the data were processed

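RRBS libraries of single mice had been made with MspI digestion and bisulfite conversion. The authors trimmed the reads with Trim Galore and Cutadapt, aligned them to mm10 with Bismark, and used methylKit to keep cytosines with at least 10 reads, below an upper coverage limit and covered in at least 3 mice per group. The values used here are the percent methylation per cytosine and mouse as deposited by the authors; read counts per cytosine were not used here, so the depth behind a value is unknown and no counting intervals are given. Between 489813 and 725467 cytosines had a value in a mouse. Every column matched a described mouse, and each mouse is 1 replicate.

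Group differences were fitted per cytosine in percentage points with limma 3.58.1 (R 4.3.3; empirical Bayes with a trended prior variance) over all cytosines with at least 3 values per group, with Benjamini-Hochberg adjustment over the whole table. CpGs were called where group means were over 25 points apart and the adjusted p was under 0.05. On simulated data, 200 of 200 CpGs changed by 40 points were recovered at an SD of 5 points and 15 of 200 at an SD of 25 points, with 0 false calls among 50000 CpGs. Annotation was GENCODE M21 on GRCm38, the same build as mm10.

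CpGs were named by rule: the 5 smallest p-values per direction and comparison, the 5 smallest and 5 largest SDs, the 15 blocks with the most CpGs, and listed genes with at least 3 intermediate CpGs within 5000 bases of a transcript start; Nipal3 and the repeated mention of Usp46 come from an alternative fit and were chosen after their values were seen. The intermediate CpGs, the gene lists and the tests were chosen with earlier results of these data known. Alternatives changed the prior, the scale, the terms of the fit, the mice, the range of means and the promoter distance.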

Additional observations from a re-analysis of the deposited data

Results flagged for a closer look

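For 35 quantities, 105 groups of mice were checked for a single mouse far from the others. The quantities were means over named groups of CpGs and a mean and shares over all intermediate CpGs. Of the groups of mice, 2 (1.90%) were flagged, where chance gives about 1 in 20. Several quantities share CpGs, as at Zrsr1 and Commd1, so the checks are not independent. The mean over 5 intermediate CpGs in Nphp4, a gene of the cilium, was 12.1% in Aged STD mouse 2 and 43.99% to 66.4% in the other Aged STD mice. The mean over 5 intermediate CpGs near Gnas was 19.5% in Aged ENR mouse 3 and 45.5% to 61.2% in the other Aged ENR mice. Both mice are among the 5 with many values of 0% or 100% (26.3% and 31.7% of the intermediate CpGs), whose part in these values was not tested.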

How the results depend on the processing

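No intermediate CpG passed the adjusted test in any comparison under any alternative except a prior variance without trend, which gave 1 call by age (in Usp46 and Gm43417), 0 by housing and 1 between Aged ENR and Young STD mice (Nipal3), or 0.0205%, 0% and 0.0205% against 0.0227%, 0.0049% and 0.0176% of all CpGs tested; whether the trend suits these CpGs was not tested. The median differences kept their sign under all alternatives run, between -12.5 and -4.33 points by age, 0.67 and 6.14 points by housing and -7.42 and -3.04 points between Aged ENR and Young STD mice. No shared deviation was seen in same-numbered mice (r from -0.06 to 0.08), which cannot exclude that the numbers pair them. With the replicate block there were 0 calls in each comparison, with medians of -8.62, 4.01 and -6.88 points. At an unadjusted p under 0.05 it gave 303 lower (6.22%) and 55 higher (1.13%) CpGs by age, against 2% and 1.12% of all CpGs tested. By housing it gave 50 (1.03%) and 152 (3.12%), against 0.773% and 1.11%. Between Aged ENR and Young STD mice it gave 303 (6.22%) and 61 (1.25%), against 2.01% and 1.14%. Counts at an unadjusted p under 0.05 moved widely. By age, lower CpGs ran from 92 to 678 and higher ones from 9 to 74. By housing, higher CpGs ran from 39 to 221 and lower ones from 11 to 59, and between Aged ENR and Young STD mice lower CpGs ran from 75 to 436 and higher ones from 19 to 105. The lowest counts of 9 and 39 came with means of 40% to 60%, which leaves fewer CpGs, and the highest values without a trended prior, where the shares were 13.9% against 3.91% of all CpGs tested for lower values by age, 4.54% against 1.72% for higher values by housing and 8.95% against 2.97% for lower values between Aged ENR and Young STD mice. The shares in the opposite directions then also turned from below to above those of all CpGs, with 1.52% against 1.24%, 1.21% against 0.875% and 2.16% against 1.58%, as they did with the replicate block. The first 3 shares were above those of all CpGs in 17 of 19, 17 of 21 and 15 of 19 alternatives, and not with the composition index as a term or on a logit scale.

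The number of CpGs depended on its definition by construction: 2238 with means of 40% to 60%, 8851 with 20% to 80% and 10260 with values in at least 18 mice. The range of 40% to 60% left 16 CpGs near maternally methylated and 11 near other imprinted genes. The share near transcript starts was 8.98% within 500 and 22.9% within 2000 bases. The median SD was 22.6 points from the median absolute deviation and 20.5 points without the 5 libraries rich in values of 0% and 100%, an alternative chosen after seeing the data, as was leaving out the largest blocks. Unknown coverage limits all statements on spread.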
